A study of Mus musculus with 16 samples.

Results

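The subunit genes of the mitochondrial respiratory chain and ATP synthase were followed in cultured mouse oligodendrocyte precursor cells (OPCs). Members were the protein-coding genes whose symbols begin with Nduf (complex I), Sdh (complex II), Uqcr (complex III), Cox4 to Cox8 (complex IV) or Atp5 (complex V), with the mitochondrially encoded mt-Nd, mt-Co, mt-Cytb and mt-Atp genes, leaving out the assembly factors named Ndufaf and Sdhaf. This gave 99 of 55335 genes in the count tables, 86 in the nuclear genome and 13 in the mitochondrial genome. Of the 99, 45 were assigned to complex I, 4 to complex II, 9 to complex III, 21 to complex IV and 20 to complex V. The symbol decides the assignment, so Ndufa4, now described as a complex IV subunit, is counted in complex I, and Atp5s, a coupling factor, is counted in complex V.

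RNA was measured in 16 libraries in 4 groups of 4. The groups were RXRgKO-labelled OPCs (RXRg-/-) with T3 for 24 h, RXRgKO-labelled OPCs without T3, WT-labelled OPCs (RXRg+/+) with T3 for 24 h, and WT-labelled OPCs without T3. T3 is triiodothyronine, the active thyroid hormone, and Rxrg encodes the retinoid X receptor gamma, a nuclear receptor that pairs with the thyroid hormone receptors. All groups shared a C57BL6J/129svEmx mixed background, a neural stem cell origin through oligospheres, and day 4 of monolayer culture. The labels do not give separate cultures or animals for the replicates, and p-values here cover only the spread from library to library.

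The respiratory chain passes electrons from NADH (complex I) and succinate (complex II) through complex III to complex IV, which reduces oxygen, and complexes I, III and IV pump protons. ATP synthase, complex V, uses the returning protons to make ATP. All but complex II are built from proteins of both genomes: the mitochondrial genome encodes a few core subunits, and nuclear genes supply the rest. Thyroid hormone is known to raise respiration in many tissues, and differentiating oligodendrocytes need ATP and acetyl units for myelin lipids.

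Facts of the whole series bear on every value. Libraries held about 18262300 to 42588400 gene counts, of which members took 2.31% to 2.87%. Rxrg, the targeted gene, went against the labels, with 4.92 ± 0.493 CPM (TMM-normalised counts scaled to library size, SD, n = 4) in RXRgKO-labelled T3 libraries, 4.25 ± 0.546 CPM in RXRgKO-labelled untreated libraries, 0.703 ± 0.271 CPM in WT-labelled T3 libraries and 1.51 ± 0.282 CPM in WT-labelled untreated libraries. Groups are therefore called by their labels, and every direction between genotype labels below is one between labelled libraries. Libraries of 1 group fell into sets: a chi-square per gene was 1.51 to 2.14 within sets and 4.92 to 8.35 between them. In WT-labelled groups, replicate 1 stood apart from replicates 2 to 4. RXRgKO-labelled libraries split by Xist, the RNA of the inactive X chromosome, into those at 1.39 to 3.75 CPM (T3 replicates 1 and 2, untreated replicates 1 and 3) and those at 543 to 723 CPM (T3 replicates 3 and 4, untreated replicates 2 and 4). WT-labelled libraries had 276 to 401 CPM of Xist with T3 and 526 to 1382 CPM without. Ddx3y, a Y-linked gene, had 68.1 to 78.3 CPM in WT-labelled T3 replicates 2 to 4 and 13.9 to 15.8 CPM untreated. In replicate 1 it had 60.6 and 73.3 CPM in that order. With T3 and without, it had 20.7 to 22.1 and 51.2 to 52.9 CPM in the RXRgKO-labelled set with Xist. In the set without Xist it had 124 to 126 and 115 to 118 CPM. The part of sex make-up in the T3 differences was not tested. All 8 OPC markers were detected, and their summed level was 2339 to 6438 CPM over the 16 libraries. The 6 mature oligodendrocyte markers summed to 2964 to 4707 CPM in RXRgKO-labelled T3 libraries, 1654 to 2247 CPM in RXRgKO-labelled untreated libraries, 17902 to 27671 CPM in WT-labelled T3 libraries and 12413 to 16845 CPM in WT-labelled untreated libraries.

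Of the 99 members, 87 passed the count filter, which kept 19764 genes in all. These were all 38 nuclear members of complex I, all 4 of complex II, all 8 of complex III, 13 of 18 of complex IV and 17 of 18 of complex V, with 7 of 13 mitochondrially encoded members. The nuclear members that did not pass were Cox4i2, Cox6a2, Cox7b2, Cox8b and Cox8c, which are isoforms known from other tissues such as lung, muscle and testis, and a second identifier of Atp5o. Cox4i2 had 138 counts in total over 16 libraries, Cox6a2 had 49, Cox8b 43, Cox7b2 27 and Cox8c 13. Their common partners Cox4i1, Cox6a1, Cox7b and Cox8a all passed.

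Levels per length differed widely between members. Within complex IV, Cox4i1, the subunit 4 isoform of most tissues, averaged 1026 CPM per kilobase of transcript over the 16 libraries, and Cox7a1, the muscle form of subunit 7a, averaged 5.59. In complex V, Atp5b, the catalytic beta subunit, averaged 602 CPM per kilobase, and Atp5g2, 1 of 3 genes for the same membrane-ring protein, averaged 2.96. The levels of Atp5g2, and of Uqcrb in complex III, are uncertain because of copies described below. Complex I ranged in the same unit from Ndufa4 at 803 to its paralogue Ndufa4l2 at 0.509, complex II from the iron-sulphur subunit Sdhb at 173 to the membrane anchor Sdhc at 46.6, and complex III from the hinge protein Uqcrh at 654 to the small subunit Uqcrb at 103. The median member stood at 122 CPM per kilobase in complex I, 101 in complex II, 194 in complex III, 211 in complex IV and 214 in complex V. The 7 measured mitochondrial genes were higher, with a median of 719 CPM per kilobase and a range of 244 for mt-Nd6 to 3443 for mt-Co1, the catalytic subunit of complex IV.

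The mitochondrially encoded set was measured only in part. mt-Nd1, mt-Nd2, mt-Nd4, mt-Nd5 and mt-Nd6 of complex I, mt-Cytb of complex III and mt-Co1 of complex IV passed the filter. Over all 16 libraries together, mt-Nd3, mt-Nd4l, mt-Atp6 and mt-Atp8 had 0 counts, mt-Co3 had 1 and mt-Co2 had 3. The whole mitochondrial contribution to complex V, mt-Atp6 and mt-Atp8, is therefore without a value. A search of the annotated transcripts (GENCODE M21, GRCm38) found nuclear copies of 5 of these 6 genes side by side on chromosome 1, between positions 24612407 and 24615565. At 98% identity or more, the copies Gm28661, Gm10925, Gm28437, Gm28438 and Gm10222 covered 99.0% to 99.9% of mt-Co2, mt-Atp6, mt-Co3, mt-Nd3 and mt-Nd4l. The files also hold a count for reads placed at several sites. It was 39.6% to 55.0% of its sum with the gene, no-gene and ambiguous counts. Whether a read enters it at each of its sites is not given in the sources used here. How much of it came from these genes was not tested. The copies themselves had few counts: Gm10222 had 0 in total, Gm28437 18, Gm28661 33, Gm10925 81 and Gm28438 292.

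How close the copies are is shown by 60 bases of 3 mitochondrial transcripts and their chromosome 1 copies (GENCODE M21, GRCm38). Capitals mark the base that differs, and none is marked where the pair is identical. Positions are counted from 1 at the 5′ end of the mitochondrial transcript, whose base is given first. For mt-Nd3 (chrM:9459-9518, plus strand) the difference is T3C, for mt-Co1 (chrM:6390-6449, plus strand) it is A1066T, and for mt-Co2 (chrM:7013-7072, plus strand) there is none.
mt-Nd3: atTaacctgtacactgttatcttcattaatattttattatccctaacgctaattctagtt
Gm28438: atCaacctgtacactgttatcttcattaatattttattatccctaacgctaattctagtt
mt-Co1: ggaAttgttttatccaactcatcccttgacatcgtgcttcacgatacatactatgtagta
Gm29216: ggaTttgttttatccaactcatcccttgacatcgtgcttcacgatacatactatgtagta
mt-Co2: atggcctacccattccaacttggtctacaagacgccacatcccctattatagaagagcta
Gm28661: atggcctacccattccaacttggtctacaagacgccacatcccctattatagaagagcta

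mt-Co1 and mt-Nd4, which kept their counts, were covered by copies over 31.3% and 63.6% of their length. How far the copies lower their counts was not tested. Among nuclear members, Atp5g2 was covered by processed copies over 100% of its length, Atp5h over 99.8%, Ndufs3 over 75.7%, Atp5g1 over 69.0%, Uqcrb over 62.8% and Ndufs5 over 60.8%. Copies covered smaller parts of Cox7c (58.3%), Atp5l (57.4%), Cox5b (45.1%), Atp5f1 (43.4%) and Ndufb4 (40.2%). The same holds for Uqcr11 (38.4%), Ndufa12 (36.2%), Ndufab1 (33.3%) and Atp5j (12.8%). Counts of all these members are uncertain to that extent.

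The first comparison asks what T3 does to these genes under each genotype label. Nuclear members had higher fitted values with T3 in both, by a modest amount: the median log2 fold change was 0.29 over 80 members in the RXRgKO-labelled libraries (76 above 0) and 0.26 in the WT-labelled libraries (71 above 0). The same median over all genes tested was -0.002 under the RXRgKO label and -0.03 under the WT label. Over abundant protein-coding genes with short transcripts (a mean of 20 CPM or more and 1500 bases or less, 1232 genes), which are nearest to the members in level and length, it was 0.18 under the RXRgKO label and 0.16 under the WT label. Of these 1232, 82.5% were above 0 under the RXRgKO label and 75.5% under the WT label, against 95% and 88.8% of nuclear members in that order of labels. No test of the list was made. With library totals in place of TMM factors the members' median was 0.16 under the RXRgKO label and 0.14 under the WT label, where the median of all genes was -0.14 and -0.15. With TMM factors taken from abundant protein-coding genes it was 0.20 and 0.18, where that of all genes was -0.10 and -0.11.

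Few members passed the test on their own. In the RXRgKO-labelled libraries 1 of 80 nuclear members was called higher and 0 lower at an adjusted p under 0.05 (edgeR quasi-likelihood test, Benjamini-Hochberg adjustment), where 2.81% of all genes were called, 2.01% higher and 0.794% lower. In the WT-labelled libraries 0 of 80 were called by edgeR, where 8.44% of all genes were called (4.96% higher and 3.48% lower), and 12 of 80 had an unadjusted p under 0.05. DESeq2 called 5 of 80 higher under the RXRgKO label, where it called 4.71% of all genes higher, and 6 of 80 under the WT label, where it called 7.68% higher. Of the short abundant protein-coding genes, DESeq2 called 6.41% and 11.5% higher in the same order of labels. The interval of a single member was wide: for Ndufs4 under the WT label the 95% interval ran from 0.03 to 1.09 (log2).

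**Figure D1:**
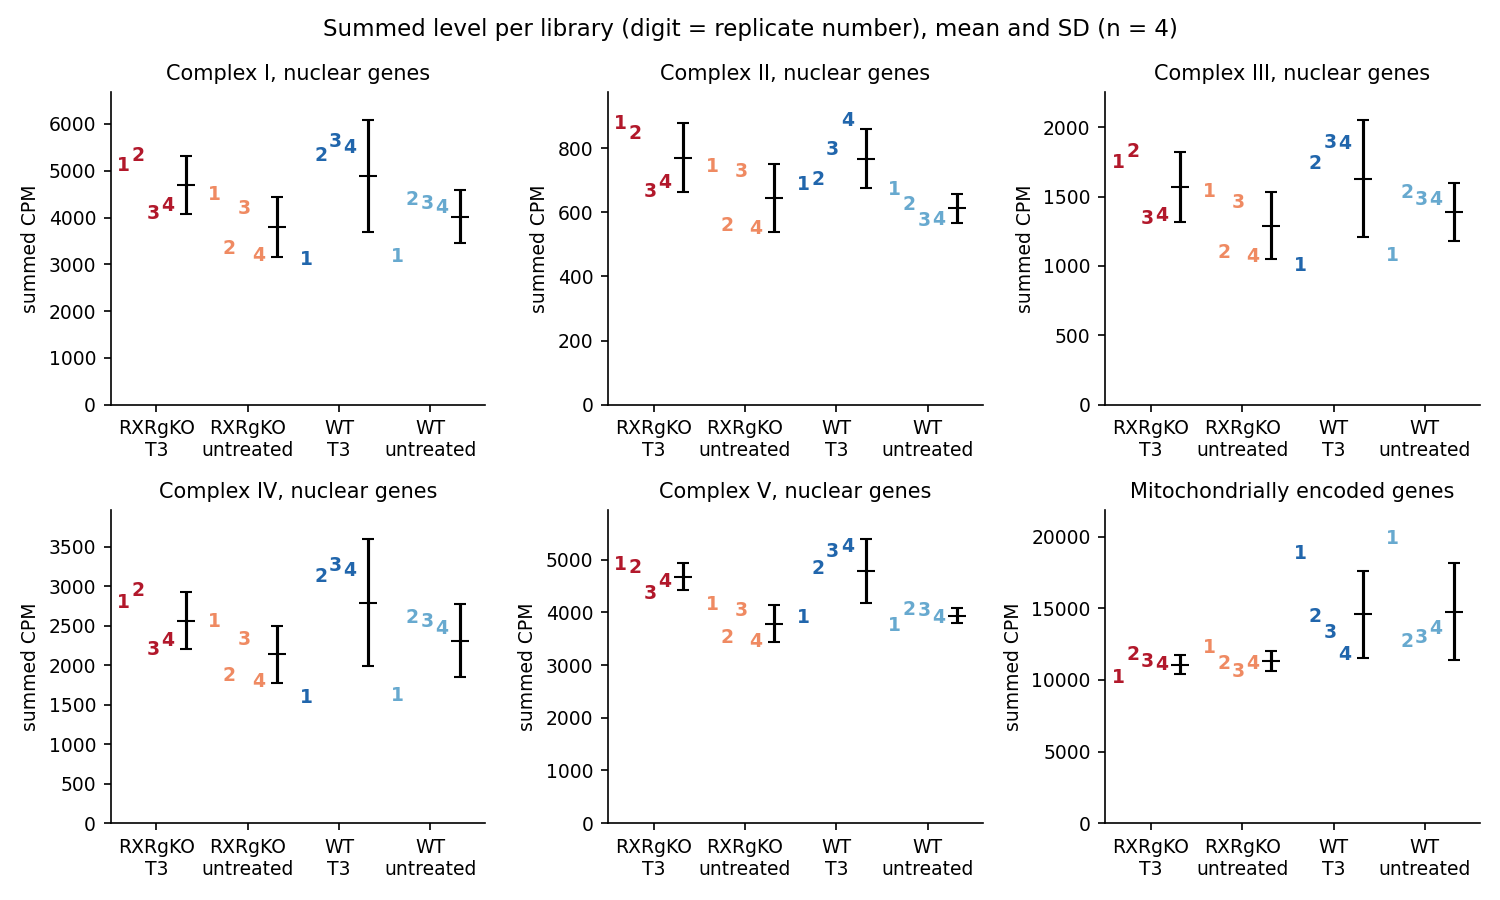
Summed CPM of the nuclear members of each complex and of the mitochondrially encoded members, by library, with the replicate number as the point and the mean and SD (n = 4) beside it, on axes that start at 0. WT-labelled replicate 1 is lowest of its group for nuclear complexes I to V with T3 (3108 CPM against 5325 to 5615 CPM for complex I, and 686 CPM against 702 to 886 CPM for complex II). It is highest for the mitochondrial genes (18805 CPM with T3 and 19843 CPM without).

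Summed per complex, the libraries of 1 group differed, as the sums of complexes I and V show. The part of these differences in the width of a single member's interval was not tested. Complex I nuclear members summed to 5114, 5321, 4089 and 4258 CPM in RXRgKO-labelled T3 libraries (replicates 1 to 4), 4495, 3338, 4182 and 3192 CPM in RXRgKO-labelled untreated libraries, 3108, 5325, 5615 and 5491 CPM in WT-labelled T3 libraries and 3168, 4394, 4309 and 4209.8 CPM in WT-labelled untreated libraries. Replicate 1 was far below the others in both WT-labelled groups, and the pair of RXRgKO-labelled libraries without Xist was above the pair with Xist in both treatments. Complex V nuclear members summed to 4675 ± 254 CPM in RXRgKO-labelled T3 libraries, 3784 ± 354 CPM in RXRgKO-labelled untreated libraries, 4781 ± 611 CPM in WT-labelled T3 libraries and 3932 ± 144 CPM in WT-labelled untreated libraries (SD, n = 4). For complex V every RXRgKO-labelled T3 library (4355 to 4901 CPM) lay above every RXRgKO-labelled untreated library (3439 to 4139 CPM), and in the WT-labelled groups replicate 1 with T3, at 3904 CPM, lay among the untreated libraries.

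Complex by complex the median T3 differences lay between 0.22 and 0.32. Median log2 fold changes under the RXRgKO and WT labels were 0.29 and 0.27 for complex I, 0.26 and 0.32 for complex II, 0.29 and 0.24 for complex III, 0.32 and 0.30 for complex IV, and 0.28 and 0.22 for complex V. All 38 complex I members were above 0 under the RXRgKO label and 35 under the WT label, and all 4 of complex II and all 8 of complex III were above 0 under both. In complex IV 12 of 13 were above 0 under the RXRgKO label and 10 under the WT label, and in complex V 14 of 17 under both. The 9 nuclear members below 0 under the WT label were 3 each of complexes I, IV and V. No test between complexes was made.

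**Figure D2:**
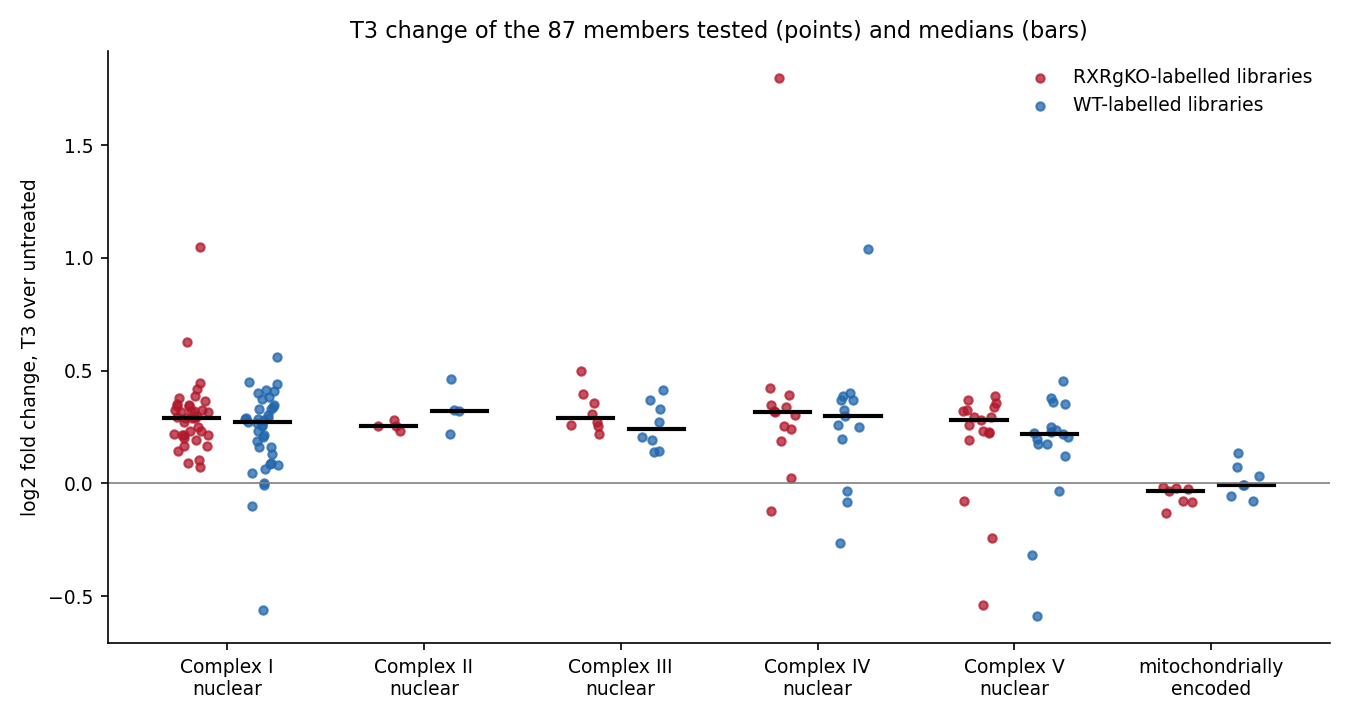
Log2 fold change with T3 against untreated for each measured member, grouped by complex and genome, under the RXRgKO and WT labels, with the group median. Nuclear members of each complex centre near 0.2 to 0.3 and the 7 mitochondrial members near 0 under both labels, and Cox7a1 stands highest at 1.80 under the RXRgKO label.

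The replicate numbers and the library sets changed how many members passed. Under the WT label only replicate 1 correlated clearly best with its own number (r = 0.648 between residuals with and without T3). Replicates 2 to 4 had 0.247, 0.211 and 0.164 with their own numbers, and up to 0.269 with another of these numbers. Their numbers are therefore not shown to pair libraries. With the replicate number as a block, a fit to WT-labelled libraries only called 32 nuclear members higher and 1 lower, where 29.4% of all genes were called (16.0% higher). Adding the library set to the model called 66 of 80 nuclear members higher and 0 lower in the RXRgKO-labelled libraries, where 33.6% of all genes were called (20.1% higher). It called 55 higher and 3 lower in the WT-labelled libraries, where 38.4% of all genes were called (20.4% higher). Of the short abundant protein-coding genes, the block called 26.2% higher, and the fit with the set called 47.9% higher under the RXRgKO label and 42.6% under the WT label. The sets were found in these same libraries, so this fit describes how the members behave within sets. Its p-values cover only the spread within sets, and the spread from set to set is taken out. Within sets, Xist and Ddx3y also differed with T3, as given above. With the set as a term, higher calls under the RXRgKO label took 33 of 38 in complex I, 2 of 4 in complex II, all 8 in complex III, 9 of 13 in complex IV and 14 of 17 in complex V, and under the WT label 26, 4, 4, 10 and 11 in the same order of complexes.

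Ndufs4 (ENSMUSG00000021764, GRCm38 chromosome 13, 114287795 to 114388258) is an accessory complex I subunit whose loss in mice causes a Leigh-like brain disease. It had the largest log2 fold change with T3 of the 38 nuclear complex I members under the WT label, where their median was 0.27. Its level was 303, 332, 238 and 252 CPM in RXRgKO-labelled T3 libraries, 225, 154, 203 and 146 CPM in RXRgKO-labelled untreated libraries, 131, 347, 335 and 298 CPM in WT-labelled T3 libraries and 113, 209, 219 and 211 CPM in WT-labelled untreated libraries. Every RXRgKO-labelled T3 library lay above every RXRgKO-labelled untreated library, and WT-labelled replicate 1 was lowest of its group with and without T3. The log2 fold change with T3 was 0.63 (SE 0.27, edgeR adjusted p = 0.267) under the RXRgKO label and 0.56 (SE 0.27, adjusted p = 0.241) under the WT label. With the library set as a term the values were 0.64 (SE 0.071, edgeR adjusted p = 4.82e-07) and 0.52 (SE 0.071, adjusted p = 4.7e-06) in that order. The p-values with the set as a term cover only the spread within sets that were found in these same libraries.

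In complex II, Sdhd, the membrane anchor next to the quinone site, had 267, 262, 141 and 137 CPM in RXRgKO-labelled T3 libraries, 220.3, 114, 214 and 115 CPM in RXRgKO-labelled untreated libraries, 122, 163, 206 and 243 CPM in WT-labelled T3 libraries and 134, 147, 123 and 128 CPM in WT-labelled untreated libraries. The Xist sets differ more here than T3 does, and the treatment groups overlap under both labels. Its log2 fold change was 0.28 (SE 0.28, edgeR adjusted p = 0.651) under the RXRgKO label and 0.46 (SE 0.28, adjusted p = 0.358) under the WT label. These were the largest values of the 4 complex II members under both labels. Sdha, the flavoprotein that oxidises succinate, had 0.26 (SE 0.18) and 0.22 (SE 0.18) in the same order.

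In complex III, Uqcrq, a small subunit beside cytochrome b, had 99.4, 110.0, 81.6 and 73.3 CPM in RXRgKO-labelled T3 libraries, 81.3, 50.8, 67.4 and 58.5 CPM in RXRgKO-labelled untreated libraries, 50.2, 112, 112 and 99.4 CPM in WT-labelled T3 libraries and 41.9, 79.8, 72.6 and 85.5 CPM in WT-labelled untreated libraries. The groups overlap under both labels, though each set is higher with T3. Its log2 fold change was 0.50 (SE 0.25, edgeR adjusted p = 0.353) under the RXRgKO label and 0.41 (SE 0.25, adjusted p = 0.368) under the WT label. These were the largest values of the 8 nuclear complex III members under both labels. With the set as a term the values were 0.50 (SE 0.073, edgeR adjusted p = 1.87e-05) and 0.40 (SE 0.073, adjusted p = 0.000158), against the spread within sets only.

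Cox7a1 (ENSMUSG00000074218, GRCm38 chromosome 7, 30184144 to 30186078) was the 1 nuclear member called with T3 under the RXRgKO label. It had 5.53, 6.32, 1.82 and 1.23 CPM in RXRgKO-labelled T3 libraries, 1.27, 1.00, 1.28 and 0.657 CPM in RXRgKO-labelled untreated libraries, 1.45, 2.06, 3.58 and 3.71 CPM in WT-labelled T3 libraries and 1.18, 1.48, 1.18 and 1.39 CPM in WT-labelled untreated libraries. The RXRgKO-labelled T3 libraries without Xist were highest of all 16, and replicate 4 with T3 lay among the untreated ones. It rose by a log2 fold change of 1.80 (SE 0.46, edgeR adjusted p = 0.0453) under the RXRgKO label, against 1.04 (SE 0.46, adjusted p = 0.19) under the WT label, where it was not called. The difference between these responses was 0.76 (SE 0.64, edgeR adjusted p = 1.00). The call under the RXRgKO label held in 7 of 19 alternatives, with values from 0.88 in the libraries with Xist alone to 2.24 in those without, and adjusted p from 5.42e-05 to 0.332. Its widespread paralogue Cox7a2, at 145 to 372 CPM with T3 and 144 to 286 CPM without over both labels, had 0.34 (SE 0.26) and 0.32 (SE 0.26) under the RXRgKO and WT labels. Cox7a2l, a relative that joins complexes III and IV rather than acting as a plain subunit, had -0.12 (SE 0.13) and -0.26 (SE 0.13) in that order.

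Cox8a, Cox5a and Cox4i1 had smaller standard errors than Cox7a1. Cox8a, the smallest nuclear subunit, had 124, 110.5, 109 and 112 CPM in RXRgKO-labelled T3 libraries, 109, 89.1, 99.8 and 88.1 CPM in RXRgKO-labelled untreated libraries, 123, 132, 153 and 169.8 CPM in WT-labelled T3 libraries and 117, 109.5, 104 and 111 CPM in WT-labelled untreated libraries. All 4 WT-labelled T3 libraries lay above all 4 WT-labelled untreated libraries, and the RXRgKO-labelled groups overlapped. The log2 fold change was 0.24 (SE 0.12, edgeR adjusted p = 0.348) under the RXRgKO label and 0.39 (SE 0.12, adjusted p = 0.059) under the WT label. Cox5a, a subunit on the matrix side, had 0.42 (SE 0.14, edgeR adjusted p = 0.12) and 0.37 (SE 0.14, adjusted p = 0.116) in the same order, and Cox4i1 had 0.19 (SE 0.27) and 0.26 (SE 0.27).

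In complex V, Atp5b had 1323, 1190.3, 1311 and 1383 CPM in RXRgKO-labelled T3 libraries, 1046, 1014, 1055 and 998 CPM in RXRgKO-labelled untreated libraries, 1363, 1093, 1234 and 1436 CPM in WT-labelled T3 libraries and 1284, 919.8, 914 and 891 CPM in WT-labelled untreated libraries. The RXRgKO-labelled groups did not overlap, and WT-labelled untreated replicate 1 stood with the T3 libraries. Its log2 fold change was 0.34 (SE 0.14, edgeR adjusted p = 0.245) under the RXRgKO label and 0.35 (SE 0.14, adjusted p = 0.147) under the WT label. The 3 genes for the ring protein differed in level and sign: Atp5g3, at 276 to 412 CPM in T3 libraries other than WT-labelled replicate 1, had 0.35 (SE 0.22) and 0.38 (SE 0.22), Atp5g1 had 0.23 (SE 0.11) and 0.20 (SE 0.11), and Atp5g2, at 0.6 to 1.9 CPM, had -0.54 (SE 0.25) and -0.59 (SE 0.25) under the RXRgKO and WT labels. Copies cover Atp5g2 over 100% of its length, so its level and sign are uncertain.

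Members were also counted by whether the libraries overlap. In the RXRgKO-labelled libraries 15 of 80 nuclear members were higher in every T3 library than in every untreated library and 0 were lower, where 7.87% of all genes were higher and 5.5% lower. In the WT-labelled libraries 2 were higher, Cox8a and Atp5d, and 3 lower, Cox7a2l, Atp5s and Atp5g2, where 7.69% of all genes were higher and 7.74% lower. Of the short abundant protein-coding genes, 14.5% were higher and 1.06% lower without overlap under the RXRgKO label, and 9.50% and 1.79% under the WT label. Among the 15 were the core complex I subunits Ndufs1 and Ndufs7, the complex III core protein Uqcrc1, and the subunits of the soluble part of ATP synthase Atp5a1, Atp5b and Atp5d.

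Within the 4 library sets the T3 change was positive in 3. The change within a set was the log2 ratio of mean CPM + 0.1, T3 over untreated. Its median over 80 nuclear members was 0.25 in the RXRgKO-labelled set without Xist and 0.32 in the set with Xist. It was 0.31 in WT-labelled replicates 2 to 4 and -0.03 in WT-labelled replicate 1, which is 1 library against 1. For short abundant protein-coding genes the same 4 medians were 0.15, 0.20, 0.21 and -0.04. Of the nuclear members, 32 of 80 (40%) were higher in all 4 sets, against 34.7% of the short abundant protein-coding genes and 20.7% of all genes tested. Of the 80, 3 (Cox7a2l, Atp5g2 and Atp5s) were lower in all 4, or 3.75%, against 8.93% of the short abundant protein-coding genes and 23.6% of all genes. The value of Atp5g2 is uncertain because of its copies. The 32 were 11 members of complex I, 2 of complex II, 2 of complex III, 7 of complex IV and 10 of complex V. The sets in their order above gave 0.57, 0.71, 0.61 and 0.21 for Ndufs4, 0.49, 0.50, 0.44 and 0.26 for Uqcrq, and 2.13, 0.81, 1.15 and 0.28 for Cox7a1.

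**Figure D3:**
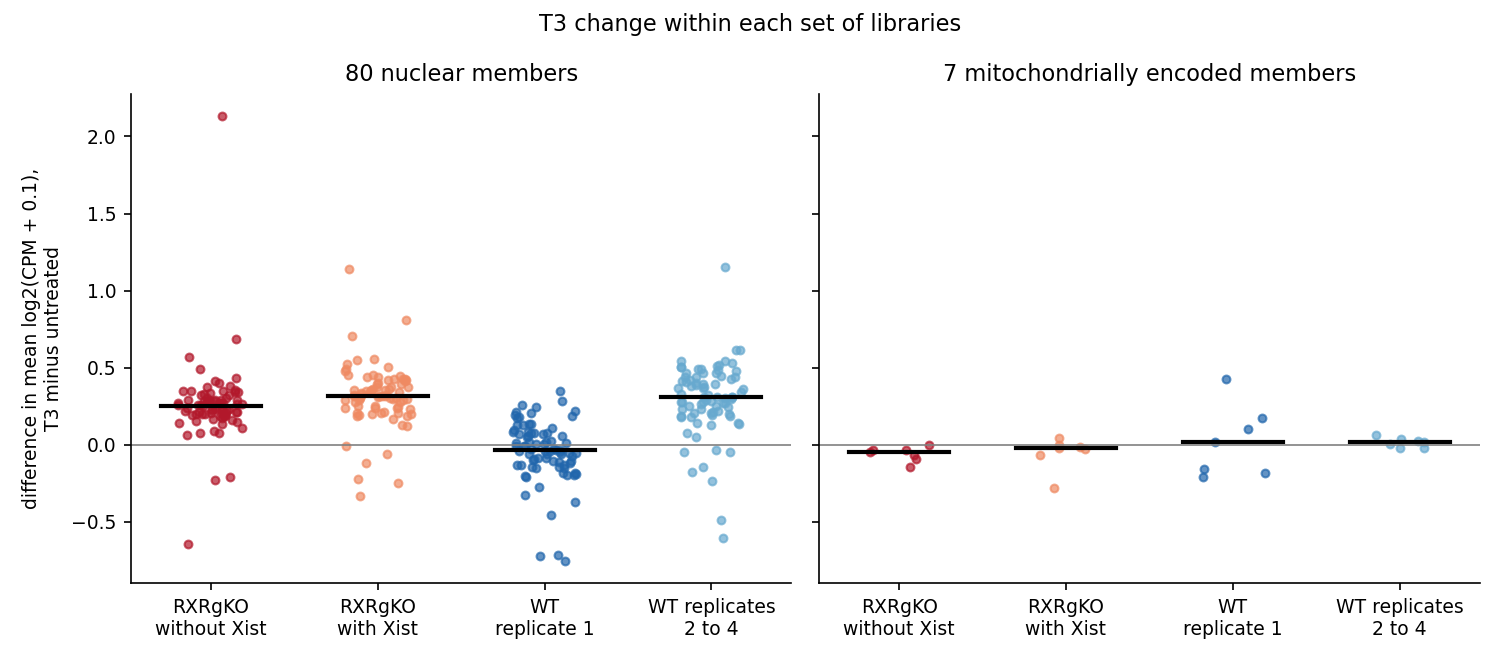
Log2 ratio of mean CPM + 0.1, T3 over untreated, for each measured member within the 4 sets of libraries. The axis label calls this a difference in mean log2(CPM + 0.1). Nuclear members stand beside mitochondrially encoded ones, with medians as bars. The nuclear medians are 0.25, 0.32 and 0.31 in 3 sets and -0.03 in WT-labelled replicate 1, and the mitochondrial medians lie between -0.05 and 0.02.

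Mature oligodendrocyte markers moved with T3 too. Of 6 such markers, 4 were called higher under each label by edgeR, with median log2 fold changes of 1.63 under the RXRgKO label and 0.96 under the WT label. The 6 astrocyte markers summed to 3739 to 7012 CPM in RXRgKO-labelled T3 libraries, 2136 to 4592 CPM in RXRgKO-labelled untreated libraries, 4360 to 14589.5 CPM in WT-labelled T3 libraries and 2542 to 7401 CPM in WT-labelled untreated libraries. Of these, 4 of 6 were higher with T3 in all 4 library sets, and edgeR called 0 under either label, with 0 and 1 at an unadjusted p under 0.05 and 0 and 1 called by DESeq2 under the RXRgKO and WT labels. The 8 OPC markers had a median of -0.30 under both labels, and 6 of 8 were lower in all 4 sets. Neither edgeR nor DESeq2 called any of the 8, with 3 and 2 at an unadjusted p under 0.05 in the same order of labels. Of 7 neuron markers, 2 were called lower under the WT label, Gad1 at -1.42 (SE 0.302) and Gad2 at -1.57 (SE 0.346), the enzymes that make the transmitter GABA, and 0 under the RXRgKO label, with 1 at an unadjusted p under 0.05 and 0 by DESeq2. The neuron markers summed to 494 to 825 CPM in RXRgKO-labelled T3 libraries, 581 to 877 CPM in RXRgKO-labelled untreated libraries, 325 to 424 CPM in WT-labelled T3 libraries and 347 to 639 CPM in WT-labelled untreated libraries. Of 5 microglia markers, P2ry12, a purine receptor, was called higher under the WT label at 1.79 (SE 0.424), with means of 1.31 CPM with T3 and 0.377 CPM without. The other 4 were below 0 there without a call, and the median of the 5 was -1.09. Under the RXRgKO label edgeR called 0 of the 5 and DESeq2 called 1 higher, and 4 were below 0, with a median of -0.74. Fewer cells of a type and less RNA per cell cannot be told apart in these bulk libraries. The part of cell type in the nuclear members' T3 difference was not tested.

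The no-gene share of the gene, no-gene, ambiguous and several-site counts moved with T3 as well. It was 11.5% to 18.7% in RXRgKO-labelled T3 libraries and 18.1% to 23.5% in RXRgKO-labelled untreated libraries, which overlap, and 12.5% to 14.7% in WT-labelled T3 libraries and 16.7% to 17.6% in WT-labelled untreated libraries, which do not. Its part in the nuclear members' T3 difference was not tested.

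The mitochondrially encoded members had medians near 0 with T3. Their median log2 fold change was -0.03 in the RXRgKO-labelled libraries (0 of 7 above 0) and -0.01 in the WT-labelled libraries (3 of 7 above 0), and the sign under the WT label changed with the scaling, between -0.12 and 0.02. edgeR called 0 of 7 under either label, 0 of 7 had an unadjusted p under 0.05, and DESeq2 called 0. mt-Co1 had a log2 fold change of -0.01 (95% interval -0.38 to 0.35) under the RXRgKO label and -0.06 (-0.42 to 0.31) under the WT label. mt-Cytb, the membrane core of complex III, had -0.03 (-0.36 to 0.29) and -0.01 (-0.33 to 0.32). Intervals this wide nearly reach or include the nuclear median, so a shift of that size would be hard to detect in a single mitochondrial gene.

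The summed mitochondrial over the summed nuclear level per library was 0.658, 0.746, 0.889 and 0.837 in RXRgKO-labelled T3 libraries, 0.911, 1.07, 0.833 and 1.11 in RXRgKO-labelled untreated libraries, 1.83, 0.918, 0.796 and 0.704 in WT-labelled T3 libraries and 1.93, 0.960, 1.00 and 1.08 in WT-labelled untreated libraries. WT-labelled replicate 1 had the highest ratio with and without T3, and the other 14 libraries lay between 0.658 and 1.11. The means were 0.783 ± 0.102, 0.982 ± 0.131, 1.06 ± 0.518 and 1.24 ± 0.461 in the same order (SD, n = 4), and the T3 and untreated groups overlap under both labels. Within each set they do not: in both Xist sets each T3 ratio lay below each untreated ratio, and so it did in WT-labelled replicates 2 to 4 and in the 1 pair of WT-labelled replicate 1. No test of the ratio was made. This ratio compares counted genes only, 7 of 13 mitochondrial genes among them.

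The next comparison sets the RXRgKO label against the WT label. Mitochondrially encoded members were lower under the RXRgKO label in all 7 fitted values, with and without T3, and the nuclear medians were nearer 0. With T3 the median log2 fold change, RXRgKO over WT, was -0.46 over the 7 mitochondrial members and -0.03 over the 80 nuclear members. Without T3 it was -0.37 and -0.08 in that order. The mitochondrial median was below 0 under each scaling (-0.48 to -0.32 with T3, -0.37 to -0.21 without), whereas the nuclear median turned positive with library totals in place of TMM factors, to 0.10 with T3 and 0.06 without, and with TMM factors from abundant protein-coding genes, to 0.02 with T3 (-0.02 without). The library totals moved the median of all genes to 0.16 with T3 and 0.15 without, and for T3 to -0.14 under the RXRgKO label and -0.15 under the WT label. The TMM factors from abundant protein-coding genes moved it by less between labels, to 0.08 with T3 and 0.07 without.

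By test, 1 of 7 mitochondrial members was called lower with T3, where 14.9% of all genes were called (8.1% higher and 6.8% lower), and 0 of 7 without T3, where 11.3% were called (6.17% higher and 5.16% lower). Unadjusted p was under 0.05 for 5 of 7 with T3 and 4 of 7 without. DESeq2 called 4 of 7 lower with T3, where it called 9.18% of all genes lower, and 1 without, where it called 6.66%. By overlap, 4 of 7 with T3 and 6 of 7 without were lower in every RXRgKO-labelled library than in every WT-labelled library, where 8.91% and 9.36% of all genes were. With the library set as a term, all 7 were called lower in both comparisons, where 20.2% of all genes were called lower with T3 and 20.1% without. No set holds libraries of both labels, so in that fit a difference between labels is set against the spread within sets only, and the spread from set to set, with 2 sets a label, is taken out.

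mt-Nd6 (ENSMUSG00000064368, GRCm38 mitochondrial chromosome, 13552 to 14070, minus strand), a membrane subunit of complex I and the one member encoded on the minus strand of that chromosome, was the mitochondrial member called. It had 111, 118, 92.1 and 86.7 CPM in RXRgKO-labelled T3 libraries against 170.1, 169, 151 and 125 CPM in WT-labelled T3 libraries, and 116, 110.2, 113 and 107 CPM in RXRgKO-labelled untreated libraries against 127, 138, 154 and 141 CPM in WT-labelled untreated libraries. Every RXRgKO-labelled library was below every WT-labelled library of the same treatment. It fell by 0.59 on the log2 scale with T3 (SE 0.13, edgeR adjusted p = 0.00466), and the log2 difference without T3 was -0.33 (SE 0.13, adjusted p = 0.137). The call with T3 held in all 20 alternatives run for it, with values from -0.82 to -0.45 and adjusted p up to 0.0497. It had the lowest level per length of the measured mitochondrial members. In mean log2(CPM + 0.1), WT-labelled replicate 1 differed from replicates 2 to 4 by 0.01 for mt-Nd6. The other measured mitochondrial members differed by 0.49 to 0.71. The libraries were poly-A selected, and how well mt-Nd6 RNA was captured was not tested. The strand setting of the counting is not given in the sources used here, so reads from the opposite strand at this place cannot be told apart.

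mt-Co1 had 4182, 4759.6, 4344 and 4386 CPM in RXRgKO-labelled T3 libraries against 7758, 5915, 5569.8 and 5054 CPM in WT-labelled T3 libraries, and 5013, 4267, 4362 and 4211 CPM in RXRgKO-labelled untreated libraries against 8967, 5273, 5443 and 5596 CPM in WT-labelled untreated libraries. No library of one label overlapped the other label under either treatment, and replicate 1 was the highest WT-labelled library in both. Its log2 fold change was -0.46 (SE 0.19, edgeR adjusted p = 0.115) with T3 and -0.50 (SE 0.19, adjusted p = 0.102) without. mt-Nd2, a proton-pumping subunit of complex I, had -0.51 (SE 0.17, edgeR adjusted p = 0.0531) and -0.42 (SE 0.17, adjusted p = 0.145) in that order. The other fitted values with and without T3 were -0.47 and -0.40 for mt-Nd5, -0.38 and -0.37 for mt-Nd4, -0.35 and -0.30 for mt-Nd1, and -0.28 and -0.25 for mt-Cytb.

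WT-labelled replicate 1 bears on the size of this difference. Without it the mitochondrial median was -0.31 with T3 and -0.18 without, and the nuclear medians became -0.18 and -0.16. In that fit 3 of 7 mitochondrial and 9 of 81 nuclear members were called lower with T3, and 0 of 7 and 8 of 81 without. That fit called 9.02% of all genes lower with T3 and 6.57% without, and 13.6% and 8.77% of the short abundant protein-coding genes. The mitochondrial sum shows the same: RXRgKO-labelled T3 libraries had 10153, 11782, 11253 and 11067 CPM against 18805, 14429.7, 13297 and 11751 CPM in WT-labelled T3 libraries, and RXRgKO-labelled untreated libraries had 12265, 11143, 10603 and 11156 CPM against 19843, 12672, 12984 and 13597 CPM in WT-labelled untreated libraries. Apart from replicate 1, the lowest WT-labelled T3 library lay within the RXRgKO-labelled range, and the untreated WT-labelled libraries lay above it. Using either Xist set alone left the mitochondrial median at -0.47 (with Xist) and -0.51 (without Xist) under T3, while the nuclear median was -0.27 and 0.05.

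**Figure D4:**
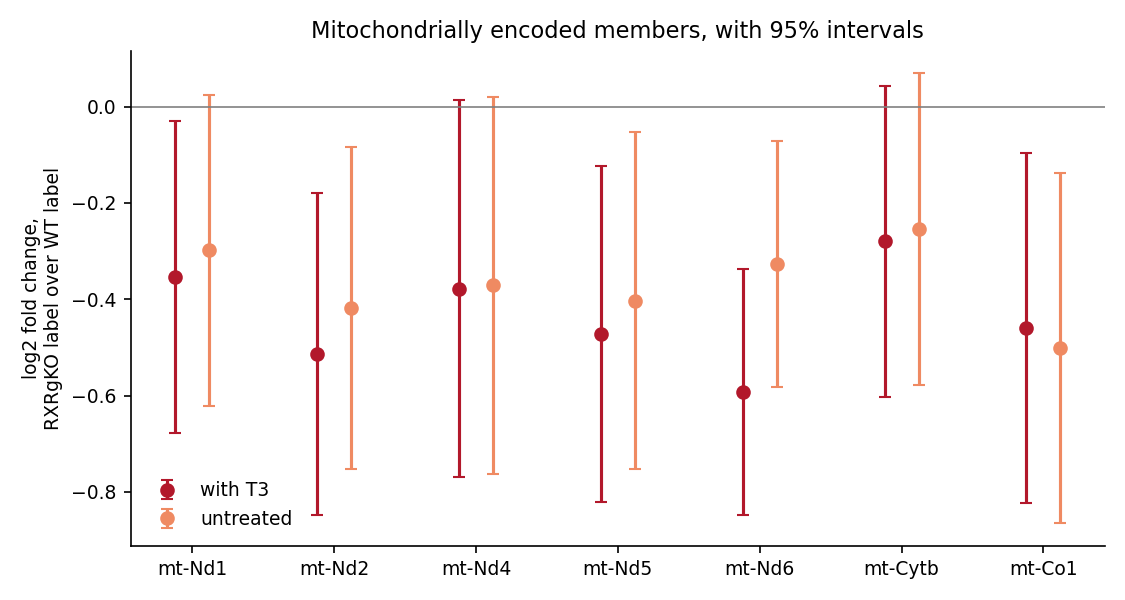
Log2 fold change of the RXRgKO label over the WT label for the 7 measured mitochondrially encoded members, with T3 and untreated (points, with 95% intervals from the edgeR fit as lines). All 14 points lie below 0, and mt-Nd6 with T3 is lowest at -0.59 (95% interval -0.85 to -0.34).

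Of the nuclear members, edgeR called 0 of 80 between labels with T3 and 0 without, with 5 and 2 at an unadjusted p under 0.05, and DESeq2 called 2 and 1, all lower. Without overlap, 1 nuclear member was higher and 2 lower with T3, where 9.17% and 8.91% of all genes were, and 0 higher and 4 lower without T3, where 9.35% and 9.36% were. Cox8a had the smallest adjusted p with T3, at a log2 fold change of -0.34 (SE 0.12, edgeR adjusted p = 0.0693). Cox6b2, the testis form of subunit 6b, had 3.64 to 8.79 CPM in RXRgKO-labelled T3 libraries against 2.45 to 3.86 CPM in WT-labelled T3 libraries, a log2 fold change of 1.00 (SE 0.45, edgeR adjusted p = 0.161). Its difference between sets of 1 label was as large, at 1.23 in mean log2(CPM + 0.1) between RXRgKO-labelled libraries without and with Xist and 1.05 between WT-labelled replicate 1 and replicates 2 to 4. The fit with the set as a term, with the limit given above, called 7 nuclear members higher and 7 lower with T3, where 22.4% of all genes were called higher and 20.2% lower, and 1 higher and 14 lower without T3, where 17.6% were called higher and 20.1% lower.

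Markers of other cell types differed between the labels. All 4 fibroblast markers were called higher under the RXRgKO label with and without T3, and their sum was 71.9 to 87.4 CPM in RXRgKO-labelled T3 libraries, 92.9 to 126 CPM in RXRgKO-labelled untreated libraries, 9.17 to 19.9 CPM in WT-labelled T3 libraries and 8.66 to 20.7 CPM in WT-labelled untreated libraries. Of 5 microglia markers, 4 were called higher in both comparisons, at a sum of 13.5 CPM or less in any library, and none of the 5 was at 0 in every library of a label. Of 7 neuron markers, 4 were called higher with T3 and 2 without, of 4 tested endothelial and mural markers 1 in each, and of 6 astrocyte and 8 OPC markers 0 by edgeR and by DESeq2, with 1 and 2 of these lists at an unadjusted p under 0.05 with T3 and 1 and 1 without. Of 6 mature oligodendrocyte markers, 5 were called lower with T3 and 6 without. The part of these cell types in the members' values was not tested.

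The T3 response was also compared between the labels. edgeR called 0 of 87 members for the response difference, where 0.0658% of all genes were called (0.0101% higher and 0.0557% lower), with 1 of 87 at an unadjusted p under 0.05, and DESeq2 called 0, where it called 0.615% of all genes. That 1 was Ndufa4l2, a hypoxia-induced relative of Ndufa4, at 0.2 to 1.0 CPM in every library, with a difference of 1.61 (SE 0.53, edgeR adjusted p = 0.53). With the set as a term, against the spread within sets only, it was the 1 member called, at 1.64 (edgeR adjusted p = 0.0492), where 6.68% of all genes were called (3.73% higher and 2.95% lower). For Ndufs4 the difference was 0.07 (95% interval -0.69 to 0.82) and for mt-Nd6 -0.27 (-0.63 to 0.09). Intervals of this width do not show that the labels respond alike. Over nuclear members the median response difference was 0.05, against 0.03 over all genes.

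The differences between sets were also set against transcript length. In WT-labelled replicate 1 against replicates 2 to 4, 66 of 80 nuclear members were lower, with a median difference in mean log2(CPM + 0.1) of -0.60. It was -0.77 for 53 members with transcripts of 1000 bases or less and 0.22 for 14 members over 1500 bases. Across the 80 genes of these shared libraries, Spearman's rho with transcript length was 0.465, a description only. Abundant protein-coding genes of the same length classes had -0.62 and 0.28. RXRgKO-labelled libraries without Xist against those with it had 70 of 80 nuclear members higher, with a median of 0.38, of which short members had 0.39 and long members 0.02. Spearman's rho over these 80 genes was -0.175. Abundant protein-coding genes had 0.35 and -0.30 in the same classes. The cause of the sets was not tested.

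**Figure D5:**
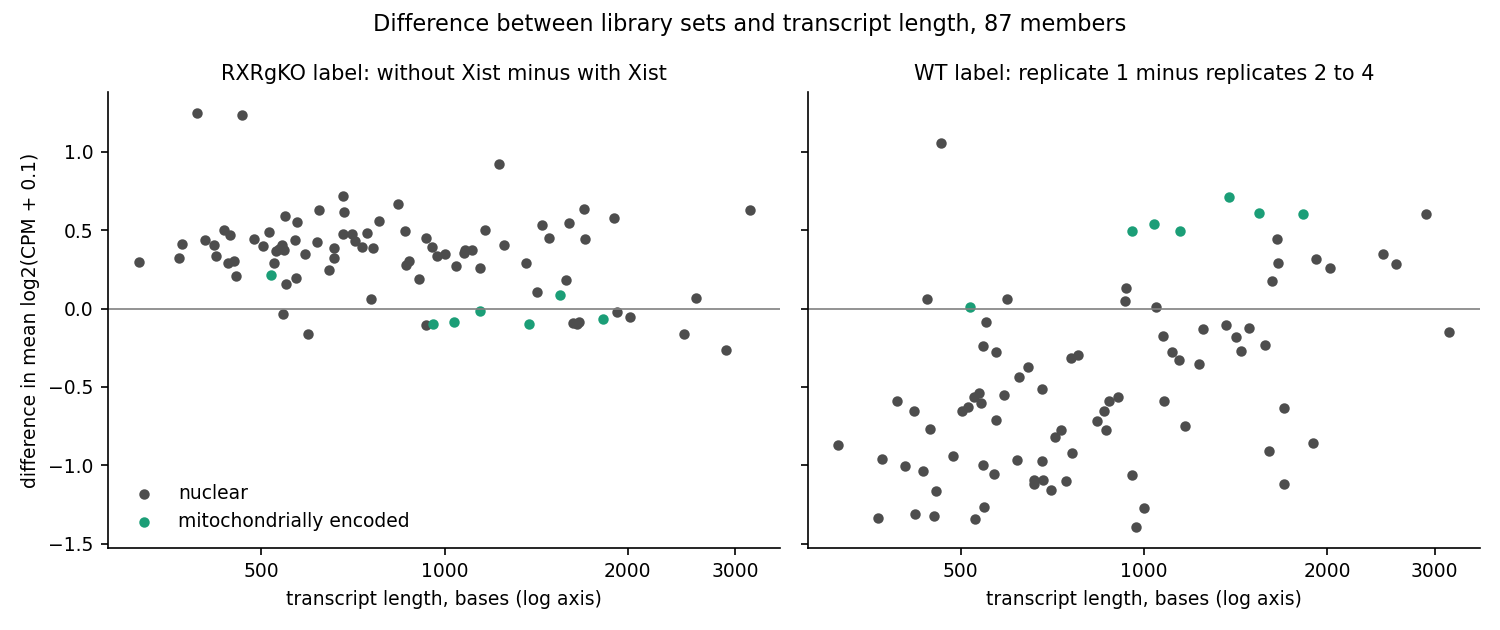
Difference between sets of libraries of 1 label in mean log2(CPM + 0.1), against transcript length in bases on a log axis, for 80 nuclear and 7 mitochondrially encoded members. In WT-labelled replicate 1 short nuclear members lie mostly below 0 (median -0.77) and mitochondrial members at or above 0, and in the RXRgKO label most nuclear members lie above 0 (median 0.38).

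Other genes of the same organelle, taken from fixed lists, give the setting. Of 45 assembly factors, 0 were called with T3 under either label by edgeR, with 1 and 2 at an unadjusted p under 0.05 under the RXRgKO and WT labels, 1 and 0 called by DESeq2, and medians of 0.19 and 0.14. Between labels 1 of 45 was called, Ndufaf2, a complex I assembly factor, at -0.78 (SE 0.149) with T3 and -0.68 (SE 0.149, edgeR adjusted p = 0.00557) without. Of 77 mitochondrial ribosome genes, which translate the mitochondrially encoded subunits, 2 were called higher with T3 under the WT label (Mrps28 at 0.62 and Mrpl36 at 0.44) and 0 under the RXRgKO label, where 4 had an unadjusted p under 0.05 and DESeq2 called 1. Their medians were 0.17 under the RXRgKO label and 0.18 under the WT label. Cytosolic ribosome genes had medians of -0.02 under the RXRgKO label and -0.11 under the WT label over 76 genes. The mitochondrial ribosomal RNA mt-Rnr2 was lower under the RXRgKO label without T3, by a log2 fold change of -0.92 (SE 0.203). It lacks a long poly-A tail, so its level in poly-A selected libraries is a poor measure of its amount.

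Of 24 genes that express or maintain mitochondrial DNA, edgeR called 0 in all 4 comparisons, with 0 to 3 at an unadjusted p under 0.05 and 0 to 1 called by DESeq2, among them Tfam, its packaging factor, at 0.00 and 0.03 with T3 under the RXRgKO and WT labels. Of 17 regulators of mitochondrial biogenesis, 1 was called with T3 under the WT label, Nrip1, a corepressor of oxidative genes, at 0.72 (SE 0.159). The thyroid hormone receptor genes Thrb and Thra were lower under the RXRgKO label, at -0.77 and -0.69 with T3 and -0.65 and -0.72 without. Nrf1, an activator of respiratory genes, and its coactivator Ppargc1a were not called with T3, at 0.03 and 0.21 under the RXRgKO label and 0.03 and -0.29 under the WT label. Cyc1, the cytochrome c1 of complex III whose symbol lies outside the rule, had 0.30 and 0.37 under the RXRgKO and WT labels, and its electron acceptor Cycs had 0.17 and 0.27, both without a call.

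Of 21 genes for electron carriers and ion or nucleotide exchange, 1 was called higher with T3 under the WT label, Ucp2, an uncoupling protein, at 1.15 (SE 0.260). Coq8a, needed for coenzyme Q synthesis, was lower under the RXRgKO label at -0.84 (SE 0.15) with T3 and -0.93 (SE 0.149) without. Of 22 genes of the citric acid cycle and pyruvate entry, the pyruvate dehydrogenase kinase genes held most of the calls: under the WT label with T3, Pdk3 was at 1.05 and Pdk4 at -1.18. Between labels Pdk2 was lower at -0.95 with T3 and -1.04 without, and Idh2, a matrix isocitrate dehydrogenase, was higher at 0.43 without T3. The medians with T3 were 0.23 and 0.19 for this list and 0.17 and 0.19 for the carriers, under the RXRgKO and WT labels.

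Promoter sequence was read for the nuclear members from RefSeq on GRCm38.p6, as 250 bases before to 50 after the start. Of 85 symbols, 67 matched, with 72 promoters. Among those not matched were Atp5a1, Atp5f1, Atp5mpl, Atp5s, Cox4i1, Cox4i2, Cox6a2, Cox6c, Cox8c, Ndufa2, Ndufa4l2, Ndufb9, Ndufs1, Sdhc, Uqcrb, Uqcrc2 and Uqcrq. Motifs were searched on both strands: GCGCA, any base and GCGC of NRF1, CCGGAAG of the ETS family, AAGATGGC of YY1, TCAAGGTCA of the estrogen-related receptors (ERR), and AGGTCA repeated after 4 bases of any kind, the DR4 spacing bound by thyroid hormone receptor with retinoid X receptor. Each motif was counted on its own, whether or not a match overlapped another motif. The NRF1 letters were in 25% of the 72 member promoters against 4.60% of 32851 promoters in the table, the ETS letters in 22.2% against 8.86%, the YY1 letters in 12.5% against 2.75%, and the ERR letters in 2.78% against 0.423%. The DR4 letters were in 0 of 72 and in 0.0152% of all. That is 5 of 32851 promoters, so 0 of 72 cannot tell whether members hold these letters more or less often.

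These 4 promoters are shown because they cover the motif matches of members described above. They are written on the gene's strand, with matches to either strand in capitals. Sdhd (chr9:50603800-50604099, minus strand) holds NRF1, ETS and ERR letters, Atp5g3 (chr2:73911277-73911576, minus strand) NRF1 and ERR letters, Ndufs4 (chr13:114388045-114388344, minus strand) YY1 letters, and Cox7a1 (chr7:30183921-30184220, plus strand) none of them.
Sdhd: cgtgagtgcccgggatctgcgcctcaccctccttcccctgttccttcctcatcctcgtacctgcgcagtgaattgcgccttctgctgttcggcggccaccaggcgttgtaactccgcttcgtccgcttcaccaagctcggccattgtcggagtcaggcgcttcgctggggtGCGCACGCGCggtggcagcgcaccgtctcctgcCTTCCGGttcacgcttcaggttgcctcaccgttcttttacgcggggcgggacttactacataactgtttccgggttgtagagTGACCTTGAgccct
Atp5g3: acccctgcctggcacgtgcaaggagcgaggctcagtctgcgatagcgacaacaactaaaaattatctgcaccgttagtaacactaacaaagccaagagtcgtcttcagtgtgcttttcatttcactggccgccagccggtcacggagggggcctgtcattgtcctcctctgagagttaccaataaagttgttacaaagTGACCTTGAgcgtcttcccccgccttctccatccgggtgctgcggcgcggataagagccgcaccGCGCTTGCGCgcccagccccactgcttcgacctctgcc
Ndufs4: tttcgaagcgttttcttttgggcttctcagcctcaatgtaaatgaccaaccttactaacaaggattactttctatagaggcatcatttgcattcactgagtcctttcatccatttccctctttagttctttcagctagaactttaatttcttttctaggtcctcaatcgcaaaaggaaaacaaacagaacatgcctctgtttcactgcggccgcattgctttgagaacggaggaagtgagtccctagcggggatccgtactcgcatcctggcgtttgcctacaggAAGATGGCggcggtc
Cox7a1: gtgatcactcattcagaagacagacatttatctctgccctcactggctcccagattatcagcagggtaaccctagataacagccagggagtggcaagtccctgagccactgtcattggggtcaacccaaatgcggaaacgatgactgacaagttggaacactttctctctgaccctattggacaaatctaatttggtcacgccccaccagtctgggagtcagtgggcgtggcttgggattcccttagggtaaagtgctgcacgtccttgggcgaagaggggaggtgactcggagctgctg

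Members with each motif were also set against their T3 change. The median log2 fold change with T3 under the RXRgKO and WT labels was 0.28 and 0.22 for 17 members with NRF1 letters, 0.26 and 0.24 for 16 with ETS letters, 0.32 and 0.33 for 9 with YY1 letters, 0.32 and 0.42 for 2 with ERR letters, and 0.29 and 0.20 for 29 with none of the 5 motifs. No test between these overlapping groups was made, and a match is not a bound site.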

How the data were processed

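Members and gene lists were chosen with earlier results of these data known. The authors deposited raw counts for 55335 Ensembl genes per library. Libraries were poly-A selected TruSeq libraries with dUTP strand marking, per the labels' protocols. The mm10 build, HTSeq 0.6.1p1, STAR 2.5.3a and bcl2fastq 2.17.1.14 were used, per the submitters' processing notes. Neither the annotation release nor the strand setting is given in the sources used here. Of the identifiers, 55154 were found in GENCODE M21 (GRCm38) and took their symbols from it. The 5 HTSeq summary lines were left out of all tests. Shares are of the sum of the gene, no-gene, ambiguous and several-site counts, without the other summary lines. Per library, no-gene counts took 11.5% to 23.5% of that sum, ambiguous counts 0.995% to 1.90% and several-site counts 39.6% to 55.0%.

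All 16 libraries entered 1 edgeR 4.0.16 quasi-likelihood fit (R 4.3.3, limma 3.58.1) with TMM factors, robust dispersions, 1 mean for each group and the filterByExpr filter, which kept 19764 genes. A gene was called where its Benjamini-Hochberg adjusted p over all genes was under 0.05. CPM are TMM-normalised, per-kilobase levels use the principal transcript, and intervals are 1.96 SE. Libraries differed within a group by more than sampling noise, so none was merged. Copies were found with blastn at 98% identity or more over at least 50 bases. The pipeline was tested on simulated data.

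Members named by rule were the mitochondrial ones, called members, the highest and lowest per length in each complex and the paralogue sets. Outside the lists, up to 3 called genes per list were named by rule. Ndufs4, Sdha, Sdhd, Uqcrq, Cox5a, Atp5d, Atp5s and the members counted without overlap were named after their values were seen.

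Whether replicate numbers pair libraries was checked by correlating residuals. Same-numbered WT-labelled libraries with and without T3 correlated at 0.648, 0.247, 0.211 and 0.164, so a block on these libraries alone was added, after seeing the data. Only replicate 1 correlated clearly best with its own number. Under the RXRgKO label they were 0.543, -0.629, -0.697 and 0.600, and between labels they were mixed. Alternatives were DESeq2 1.42.0, other scalings and filters, the replicate block, the library set as a term, sets left out and each library left out in turn.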

Additional observations from a re-analysis of the deposited data

Results flagged for a closer look

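In groups of 4, a library far from the other 3 (Dixon's test, 95%) marked 10 values, all in WT-labelled replicate 1. Chance marks about 1 in 20 groups. With T3, the nuclear sums of replicate 1 were low for complex I at 3108 CPM, for complex IV at 1586.5 CPM and for all nuclear members at 10291 CPM. Without T3, replicate 1 was low for complex I at 3168 CPM, for complex III at 1076 CPM and for complex IV at 1623 CPM, and Ndufs4 was low at 113 CPM. In the same untreated library the mitochondrially encoded sum was high at 19843 CPM, mt-Co1 was high at 8967 CPM, and the ratio of mitochondrial to nuclear sums was high at 1.93. The values with and without this replicate stand beside the results they touch.

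Gm28438, the nuclear copy of mt-Nd3 on chromosome 1, lies outside the comparisons and reached 28 counts in 1 library, where mt-Nd3 itself had 0 counts in all 16. A count of 0 allows up to 3 by sampling alone. That bound does not hold for the level of mt-Nd3 RNA, since how many of its reads fell in the several-site count was not tested.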

How the results depend on the processing

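The number of members called was the result that moved most. It is of 87 in the fit with all libraries and no block. Other fits tested 79 to 85 nuclear and 7 to 9 mitochondrially encoded members. For T3 under the RXRgKO label it was 1 in the fit with all libraries and no block, 0 with library totals, with a filter of 1 CPM in 4 libraries, with only the groups compared, with TMM factors from abundant protein-coding genes, with the replicate block and with the Xist libraries alone, 5 with DESeq2 and 66 with the library set as a term. For T3 under the WT label it was 0, against 1 with DESeq2 size factors in edgeR, 6 with DESeq2, 12 without WT-labelled replicate 1, 33 with the replicate block on WT-labelled libraries alone and 58 with the set as a term. The 12 were among 81 nuclear members, all called higher, in a fit that called 15.6% of the short abundant protein-coding genes higher. The cause of these changes in number was not tested. No set holds both labels, so the label counts with the set as a term leave out the spread from set to set. Between labels with T3 it was 1, against 2 with DESeq2 size factors, with the 1 CPM filter and with the abundant-gene TMM factors, 5 with the libraries without Xist alone, 6 with DESeq2, 12 without WT-labelled replicate 1 and 21 with the set as a term. Between labels without T3 it was 0, against 1, 2, 8 and 22 for the libraries without Xist alone, DESeq2, no WT-labelled replicate 1 and the set as a term. For the response difference it was 0, and 1 with the set as a term.

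Leaving out each library in turn gave 0 to 1 members called for T3 under the RXRgKO label and 0 to 11 under the WT label, 1 to 3 between labels with T3, 0 to 0 without T3 and 0 to 0 for the response difference. Without WT-labelled T3 replicate 1 it was 11, and without WT-labelled untreated replicate 1 it was 5. The share of all genes called was not taken for these fits, so the 11 and 5 are not read as a result about the members. The same omissions moved the nuclear median for T3 over 0.22 to 0.37 under the RXRgKO label and 0.15 to 0.42 under the WT label, and the mitochondrial median over -0.08 to 0.01 and -0.17 to 0.17. Between labels the nuclear median ran from -0.18 to 0.02 with T3 and -0.16 to -0.04 without, and the mitochondrial median from -0.54 to -0.31 and -0.47 to -0.18. For the response difference the nuclear median ran from -0.12 to 0.12 and the mitochondrial median from -0.24 to 0.11. The replicate block over all 16 libraries left the nuclear T3 medians at 0.28 and 0.25 and the mitochondrial label medians at -0.43 with T3 and -0.34 without. No called value reversed its direction under an alternative.

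Depth limits Cox7a1, Cox6b2, Ndufa4l2 and Atp5g2, which lie near or below 10 CPM. Atp5g2 is also covered by copies over 100% of its length, so its count is uncertain at any depth. Mitochondrial members without counts, mt-Atp6 and mt-Atp8 among them, cannot be compared at all.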
